A study of Mus musculus with 60 samples.

Results

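The 10 genes described here encode integrin subunits of the gut epithelium and of its muscle: Itga3, Itga6, Itgb4 and Itgb6, which are grouped as epithelial, Itga1, Itga5, Itga7 and Itga8, grouped as muscle, and Itgav and Itgb1, which many cell types express. They were taken by symbol from a colon count table of 27179 genes, and all 10 were among the 18057 genes that passed the filter on low counts. RNA came from a 5 mm piece of mid-colon from each of 60 male DBA/1 mice, at 1 library per mouse. In 30 mice collagen-induced arthritis (CIA) had been started at 9 to 10 weeks of age with bovine type II collagen in Complete Freund's adjuvant, followed by a collagen boost on day 21, and colon was taken 7 days after joint symptoms appeared. The other 30 mice were naïve, were housed with the arthritic mice and had not been immunised, so that an effect of arthritis and one of the injections cannot be told apart. Each treatment had 5 mice at ZT0, ZT4, ZT8, ZT12, ZT16 and ZT20, where ZT0 is lights on and ZT12 lights off.

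Integrins are receptors that join a cell to its matrix, each built from 1 α and 1 β chain. The β chain sets which α chains can be used: the β1 chain pairs with α1, α3, α5, α6, α7, α8 and αv, the β4 chain with α6 only, and the β6 chain with αv only. In epithelium α6β4 anchors the basal surface to laminin in hemidesmosomes, α3β1 also binds laminin, and αvβ6 binds and activates latent TGF-β. In smooth muscle α1β1 binds collagen, α5β1 fibronectin, α7β1 laminin, and α8β1 fibronectin and nephronectin.

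Total counts ran from 25840240 to 61425974 per library, with medians of 45528580 in CIA and 43267100 in naïve mice, and the fewest counts of a member in any library were the 330 counts of Itga8. The labelled tissue was borne out by its markers, with Epcam at 1514 ± 177 CPM and Myh11 at 3004 ± 1085 CPM (counts scaled to a common library size, mean ± SD, n = 30) in naïve mice. Hemidesmosome genes were uneven in the same mice, with Plec at 680 ± 103, Cd151 at 166 ± 11.3 and Col17a1 at 0.671 ± 0.370 CPM. A score for smooth muscle, the mean log2 CPM of 13 smooth muscle genes, was 9.90 ± 0.441 in CIA and 9.20 ± 0.483 in naïve mice (SD, n = 30), whereas a score of 12 epithelial genes was 9.66 ± 0.170 and 9.67 ± 0.121. In whole tissue, a change in the number of cells of a type and a change in the RNA of each cell cannot be told apart. Skeletal muscle genes stood out in 2 libraries, replicate 2 of CIA at ZT12 and replicate 5 of naïve at ZT0, with scores of 5.13 and 3.27 against at most 0.850 in the other 58, and leaving both out changed none of the 10 treatment calls below.

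To compare genes with each other, CPM were divided by the length of all annotated exons of the gene in kilobases. On this scale Itgb1, the shared partner chain, was the most abundant member at 134 ± 18.3 CPM per kb in naïve mice (SD, n = 30). A middle tier held Itgb4 at 29.9 ± 6.17, Itga5 at 27.4 ± 11.8 and Itga3 at 26.8 ± 2.34 CPM per kb, whose intervals of mean ± SD overlapped. Below these came Itga7 at 8.53 ± 1.84, Itga6 at 8.11 ± 1.82, Itgav at 6.26 ± 0.693 and Itgb6 at 4.94 ± 1.70 CPM per kb, again with each overlapping its neighbour. Itga8 at 2.06 ± 0.528 and Itga1 at 1.92 ± 0.50 CPM per kb were last and also overlapped. The lengths came from GENCODE and the counts were per Entrez gene, and these annotations can differ. For Itga1 the gene starts at base 114953096 of chromosome 13 in GENCODE and at 114958079 in RefSeq. How far the order of close genes depends on this was not tested. In CIA mice the same genes stood first and last, Itgb1 at 171 ± 33.5 and Itga1 at 2.98 ± 0.812 CPM per kb, but Itga5 at 37.6 ± 13.4 CPM per kb now stood second, and Itgav at 7.69 ± 0.894 stood above Itga6 at 6.58 ± 1.4, although the intervals of Itga5 and Itga3, and of Itgav and Itga6, overlapped.

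**Figure D1:**
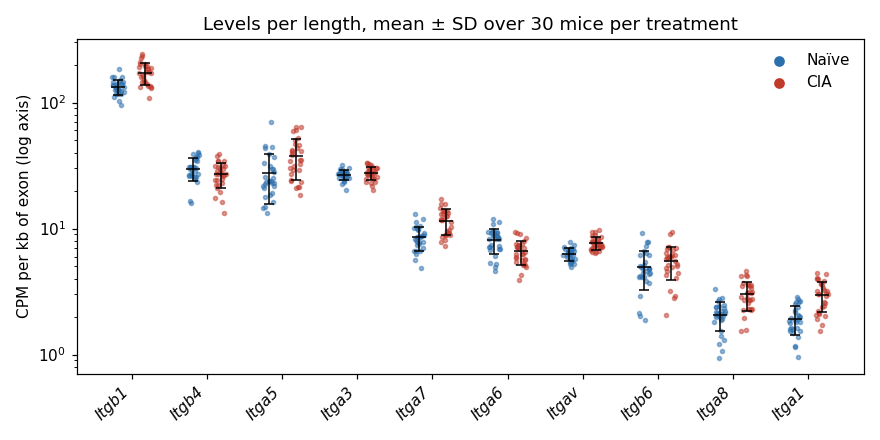
CPM per kb of annotated exon (log axis) of the 10 integrin subunits, ordered by the mean level in naïve mice. Each point is 1 mouse, blue for naïve and red for CIA, and bars are mean ± SD over 30 mice. Itgb1 lies above all other members in both treatments, with 134 ± 18.3 CPM per kb in naïve mice, and Itga8 and Itga1 lie lowest.

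The first question was whether arthritis went with a different level of these receptors when the time points were pooled. All 4 muscle members and both broadly expressed members rose in CIA, Itga6 of the epithelium fell, and Itga3, Itgb4 and Itgb6 did not pass the test (edgeR quasi-likelihood test, Benjamini-Hochberg adjusted p under 0.05). These 6 higher and 1 lower members stand beside a background of 17.6% of all tested genes called higher and 20.4% called lower, 38% in all, and beside a median log2 fold change of all genes of -0.025. The 6 higher members were higher in mean CPM at 6 of 6 time points, and Itga6 was lower at 6 of 6. These directions come from the same mice as the pooled test and are no separate support. The share of all called genes with 1 direction throughout was not computed.

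**Figure D2:**
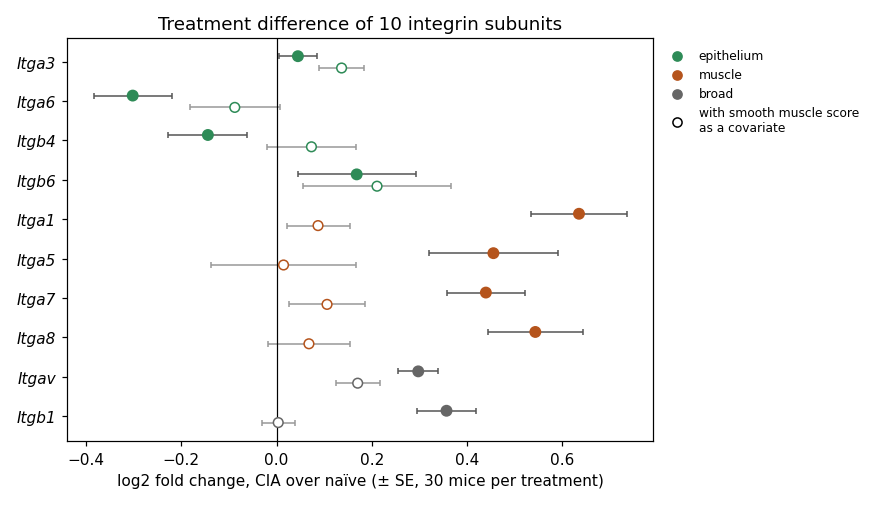
Log2 fold changes of CIA over naïve (x axis, ± SE, 30 mice per treatment) for the 10 members (y axis), green for epithelial, orange for muscle and grey for broadly expressed genes. Filled points are from the comparison of treatments alone and open points take the smooth muscle score into the model, with which Itga1 moves from 0.63 to 0.087, Itgb1 from 0.36 to 0.0034 and Itgav from 0.30 to 0.17.

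Among the muscle members, Itga1 had the largest difference. Its levels in naïve mice ran from 17.6 through a median of 34.6 to 53.4 CPM, and in CIA mice from 28.7 through 56.4 to 82.4 CPM. The ranges overlapped, but 28 of 30 CIA mice lay above the naïve median. The log2 fold change was 0.63 (SE 0.10, adjusted p = 2.59e-06). Itga8, the α chain of a receptor for nephronectin, ran from 6.86 through 15.5 to 24.5 CPM in naïve and from 11.4 through 21.8 to 33.9 CPM in CIA mice. Here 27 of 30 CIA mice were above the naïve median, and the log2 fold change was 0.54 (SE 0.10, adjusted p = 2.56e-05). Itga7, the laminin-binding chain of muscle, ran from 39.1 through 68.9 to 106 CPM in naïve and from 58.5 through 95.6 to 138 CPM in CIA mice. Its log2 fold change was 0.44 (SE 0.082, adjusted p = 3.09e-05), with 27 of 30 CIA mice above the naïve median. Itga5, the fibronectin-binding chain, was the most variable of the 4, from 65.3 through 118 to 343 CPM in naïve and from 91.1 through 173 to 318 CPM in CIA mice. The highest single value was that of a naïve mouse, 24 of 30 CIA mice exceeded the naïve median, and the log2 fold change was 0.46 (SE 0.14, adjusted p = 0.00626).

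Itgav and Itgb1 had smaller fold changes but less spread. Itgav ran from 53.4 through 67.3 to 83.6 CPM in naïve and from 68.7 through 80.8 to 105 CPM in CIA mice. Every CIA mouse, 30 of 30, lay above the naïve median, and the log2 fold change of 0.30 (SE 0.042, adjusted p = 3.45e-07) had the smallest p of the 10 members. Itgb1 ran from 390.2 through 541 to 749 CPM in naïve and from 441 through 697 to 989 CPM in CIA mice. Its log2 fold change was 0.36 (SE 0.062, adjusted p = 1.28e-05), with 27 of 30 CIA mice above the naïve median.

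The epithelial members did not move as a group. Itga6 ran from 41.3 through 75.3 to 108 CPM in naïve and from 35.3 through 57.6 to 85.3 CPM in CIA mice. In 26 of 30 CIA mice it was below the naïve median, and it fell by 0.30 on the log2 scale (SE 0.082, adjusted p = 0.00265). Without the 10 libraries of ZT20 the difference was -0.23 and was no longer called (adjusted p = 0.0543). Itgb4, the only β chain besides β1 that binds α6, ran from 112 through 209 to 285 CPM in naïve and from 93.5 through 190.2 to 275 CPM in CIA mice, and the log2 fold change was -0.14 (SE 0.083, adjusted p = 0.166). Itga3 differed by 0.045 on the log2 scale (SE 0.040, adjusted p = 0.397) and ran from 116 to 182 CPM in naïve and from 116 to 189 CPM in CIA mice. Itgb6 ran from 13.3 through 33.9 to 65.4 CPM in naïve and from 14.8 through 41 to 66.3 CPM in CIA mice, and its log2 fold change of 0.17 (SE 0.12, adjusted p = 0.289) was not called. Leaving out each of the 60 libraries in turn kept all 7 calls in every run.

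The smooth muscle score moved with these results. All 13 of its genes rose in CIA, among them Acta2, an actin of smooth muscle, at 0.66 on the log2 scale (SE 0.097, adjusted p = 6.31e-07) and Myh11, its myosin heavy chain, with 0.76 (SE 0.12, adjusted p = 2.89e-06). With this score as a covariate Itgav alone among the members was called, at 0.17 on the log2 scale (SE 0.047, adjusted p = 0.0170), and the background was then 4.23% of genes higher and 4.45% lower. The 4 muscle members had values between 0.015 for Itga5 and 0.11 for Itga7, and Itgb1 had 0.0034 (SE 0.035). Itga6 then stood at -0.088 (SE 0.094, adjusted p = 0.593), and Itgb4 turned to 0.073 (SE 0.093, adjusted p = 0.660). Itga3 stood at 0.14 (SE 0.047, adjusted p = 0.0549), just outside the threshold. With the epithelial score as a covariate the same 7 members were called, with log2 fold changes of 0.60 for Itga1 and -0.29 for Itga6, at a background of 18.5% higher and 21% lower.

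The score is itself measured in these libraries and higher in CIA, so its part in the difference and that of treatment overlap and cannot be told apart. The share of smooth muscle in the piece of colon that was taken was not measured.

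The second question was whether these differences belonged to a time of day. Within time points, with 5 mice against 5, 4 of 60 tests of members passed, 3 of them higher and 1 lower. Itgav was called at ZT12, where 2.86% of genes were called higher. Its levels in the 5 CIA mice were 72.9, 87.3, 100.6, 88.5 and 77.1 CPM, and in the 5 naïve mice 58.03, 57.6, 66.4, 53.4 and 61.1 CPM. The groups did not overlap, and the log2 fold change was 0.52 (SE 0.099, adjusted p = 0.00100). At ZT4 the CIA mice also lay above all naïve mice, from 76.7 to 100.7 CPM against 60.7 to 73.7 CPM, though the adjusted p was 0.0576. In the other direction 6.42% of genes were called at ZT12. At the 4 time points with no call among the members, 0.0111% of genes were called higher and 0.0111% lower at ZT0, 0.216% and 0.642% at ZT4, 0% and 0.0332% at ZT8, and 0% and 0.00554% at ZT16.

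The other calls were at ZT20, at which 6.14% of genes were called higher and 6.88% lower. Itga6 was at 56.7, 56.7, 44.7, 46.8 and 66.7 CPM in CIA and at 84.5, 87.6, 83.4, 80.7 and 75.4 CPM in naïve mice. Every CIA mouse was below every naïve mouse, and Itga6 fell by 0.60 on the log2 scale (SE 0.18, adjusted p = 0.0238). Itga1 was at 56.2, 47.9, 69.4, 73.5 and 75.5 CPM in CIA mice and at 40.3, 30.1, 51.5, 48.9 and 17.6 CPM in naïve mice. These groups overlapped slightly, and Itga1 rose by 0.78 on the log2 scale (SE 0.25, adjusted p = 0.0334). Itga7 was at 90.5, 83.2, 126.6, 126.5 and 119 CPM in CIA and at 83.6, 67.0, 90.5, 62.8 and 53.8 CPM in naïve mice, and the log2 fold change was 0.61 (SE 0.19, adjusted p = 0.0309). At the same time point the smooth muscle score was 10.0 ± 0.379 in CIA and 9.12 ± 0.681 in naïve mice (SD, n = 5), With that score as a covariate none of the ZT20 calls remained, and Itga6 stood at -0.30 (adjusted p = 0.385). The ZT20 calls were also lost in most runs with fewer mice. Each of these runs left out 1 replicate number, that is 1 mouse from every group. The call of Itga1 was lost for each of the 5 numbers (adjusted p from 0.0503 to 0.196), with log2 fold changes from 0.55 to 0.89. That of Itga6 was lost for numbers 2, 3, 4 and 5 (from 0.0569 to 0.105), with -0.70 to -0.53 over the 5 runs. That of Itga7 was lost for numbers 3, 4 and 5 (from 0.0629 to 0.151), with 0.50 to 0.73 over the 5 runs. The call of Itgav at ZT12 was kept in all 5 runs.

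Among all 60 pairs of member and time point, CIA mice lay entirely above naïve mice in 2 and entirely below in 1, where 1.75% and 2.62% of such pairs over all genes did so. All 24 pairs of the muscle members and all 12 pairs of the broad members had a log2 fold change above 0, while the epithelial members were above 0 in 9 and below in 15 of 24. The mice are those of the pooled test, so these directions add no separate support to its calls. The muscle fold changes were lowest at ZT8 for Itga1, at 0.44, and for Itga8, at 0.28, and at ZT16 for Itga5, at 0.32, and Itga7, at 0.33, and Itga1 was highest at ZT0, at 0.84 (SE 0.25, adjusted p = 0.0872). No member's treatment effect differed between time points (edgeR interaction test, smallest adjusted p = 0.965, and 0 members at an unadjusted p under 0.05). No gene of the 18057 passed that test, and 817 had an unadjusted p under 0.05, so the time points at which calls were made were not shown to differ from the others.

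**Figure D3:**
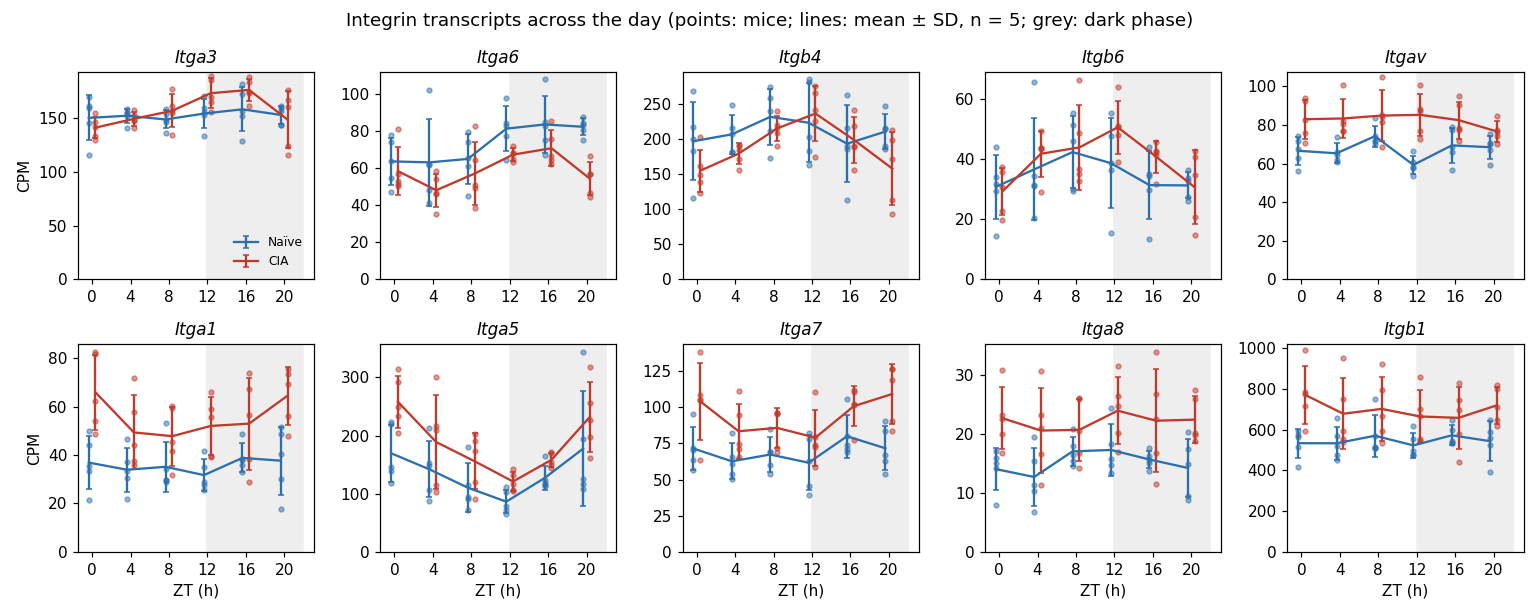
CPM (y axes, from 0) of each member against ZT in hours (x axes), with 1 point per mouse and lines joining the mean ± SD of 5 mice, blue for naïve and red for CIA, over a grey dark phase. Itga5 dips to 86.3 ± 19.9 CPM in naïve and 121 ± 16.5 CPM in CIA mice at ZT12, and the red line of Itgav lies above the blue one at 6 of 6 time points.

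The third question was whether the receptors followed a daily rhythm. A 24 h cosine passed the test in naïve mice for 2 of 10 members, Itga5 and Itga6, at a background of 35.4% of genes, and in CIA mice for 5 of 10, Itga3, Itga5, Itga6, Itgb4 and Itgb6, at a background of 29.6%. Itga5 had the largest amplitude, the distance from mean to peak, at 0.46 on the log2 scale in naïve (adjusted p = 0.00125) and 0.50 in CIA mice (adjusted p = 7.01e-04). Its fitted peaks were at ZT22.8 and ZT23.0. In the naïve mice of ZT0 it stood at 224, 146, 220, 118 and 140 CPM, and in those of ZT12 at 65.3, 103, 111, 72.6 and 79.5 CPM. In CIA mice it went from 204 to 314 CPM at ZT0 down to 105 to 143 CPM at ZT12. At ZT12 no mouse of either treatment reached the lowest level seen in its own treatment at ZT0. Both time points lie near the fitted peak or trough of Itga5, and the share of all genes so separated was not computed.

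Itga6 peaked in the dark phase in both treatments, at ZT16.0 in naïve (amplitude 0.27, adjusted p = 0.0167) and ZT14.7 in CIA mice (amplitude 0.23, adjusted p = 0.0436). Both lay close to the threshold, and leaving out replicate number 2, 3 or 5 removed the call in each treatment (adjusted p from 0.0587 to 0.133 in naïve and from 0.136 to 0.275 in CIA mice). Itgb4 in CIA mice had an amplitude of 0.33 and a peak at ZT10.7 (adjusted p = 0.00311), against 0.099 in naïve mice (adjusted p = 0.546). It stood at 155 ± 30.2 CPM at ZT0 and 236 ± 39.7 CPM at ZT12 in CIA mice (SD, n = 5), and at 196 ± 55.1 and 223 ± 56.6 CPM in naïve mice. Itgb6 in CIA mice peaked at ZT10.3 with an amplitude of 0.40 (adjusted p = 0.0278), and in naïve mice the amplitude was 0.22 (adjusted p = 0.196). The call in CIA mice was lost without replicate number 3, 4 or 5 (adjusted p from 0.0665 to 0.173). Itga3 in CIA mice peaked at ZT13.0 with an amplitude of 0.16 (adjusted p = 0.00184), and in naïve mice the amplitude was 0.030 (adjusted p = 0.750). The 3 epithelial members called in CIA and not in naïve mice peaked between ZT10.3 and ZT13.0, near lights off. Itga7 in CIA mice lay just outside the threshold, with an amplitude of 0.23 (adjusted p = 0.0502). It passed without replicate number 2 (adjusted p = 0.0179), without the 2 libraries with skeletal muscle genes (0.0247) and with the smooth muscle score in the model (0.0176). With that score Itga1 also passed, at amplitudes of 0.14 in naïve (adjusted p = 0.0197) and 0.15 in CIA mice (0.0215).

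A rhythm called in 1 treatment and not in the other is no difference by itself. The difference in rhythm passed the adjusted test for no member, and 0.0222% of all genes passed it. Itga3 was the only member with an unadjusted p under 0.05, at 0.0303 (adjusted p = 0.731), and limma likewise had 1 member at an unadjusted p under 0.05 and 0 after adjustment. Choosing among 5 models of rhythm by their Schwarz weights, with a weight of at least 0.6 needed, placed Itga5 (weight 0.982) and Itga6 (0.964) in the class with the same rhythm in both treatments, which held 34.7% of genes. Itga3 (0.941) and Itgb4 (0.831) fell in the class with a rhythm in CIA only, which held 2.4% of genes, and no member fell in the class with a rhythm in naïve mice only, which held 4.65%, or in that with a changed rhythm, which held 0.233%. Itgb4 left its class without replicate number 4 and with the muscle score in the model. Itga1, Itga8, Itgav and Itgb1 were classed as without rhythm, as were 35.7% of genes, and Itgb6 and Itga7 reached the weight for no class, as did 22.4%. With the muscle score in the model Itga1, Itga7 and Itgb6 fell in the class with the same rhythm, and Itga8 in none. The epithelial score also varied over the day in CIA mice, from 9.51 ± 0.0638 at ZT0 to 9.79 ± 0.174 at ZT16, against 9.64 ± 0.179 and 9.67 ± 0.171 in naïve mice (SD, n = 5), and its part in the epithelial rhythms was not tested.

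Across the 60 libraries the members divided by the marker score they followed. The share of all genes that go with either score as closely was not computed, so these relations were not shown to be particular to integrins. Log2 CPM of Itgb1 had r = 0.945 with the smooth muscle score (Spearman rho 0.952), Itga1 r = 0.921 (rho 0.912), Itga8 r = 0.844 (rho 0.815) and Itga7 r = 0.783 (rho 0.798). Itgav followed with r = 0.712 (rho 0.691) and Itga5 with r = 0.622 (rho 0.612). Itga6 had r = -0.586 (rho -0.532), and all 7 had a permutation p of 1e-05, the smallest that 100000 resamples can give, for Pearson's r (adjusted p = 2e-05 over 20 relations). For rho the p of 6 of them was also 1e-05, and that of Itga6 was 2e-05. Itgb4 had r = -0.474 (rho -0.520, permutation p = 0.00013 and 5e-05). Itga3 had r = -0.233 (rho -0.217, adjusted permutation p = 0.0852), though -0.538 within CIA mice (adjusted permutation p = 0.00350), and Itgb6 r = 0.056 (rho -0.0071, adjusted permutation p = 0.684).

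Because both treatments enter these values, each was computed within treatments of 30 libraries. Itgb1 kept r = 0.938 within naïve and 0.940 within CIA mice, Itga1 0.864 and 0.886, Itga8 0.751 and 0.779, Itga7 0.607 and 0.739, and Itgav 0.482 and 0.541. Itga5 was weaker within naïve mice, at 0.364 (adjusted permutation p = 0.0858), than the 0.686 within CIA mice, a gap that was not tested. Itga6 had -0.431 and -0.497, and Itgb4 -0.267 (adjusted permutation p = 0.236) and -0.613. Without the 2 libraries farthest from the median score, r of these 8 members lay between -0.596 for Itga6 and 0.939 for Itgb1 and each remained past the threshold.

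**Figure D4:**
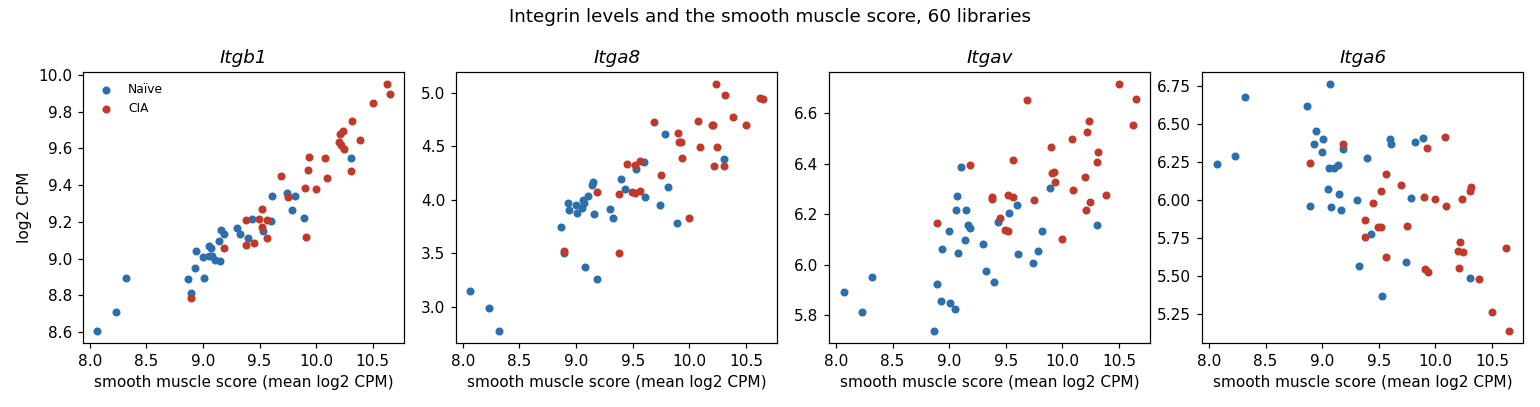
Log2 CPM of Itgb1, Itga8, Itgav and Itga6 (y axes) against the smooth muscle score (x axes, mean log2 CPM of 13 genes) in 60 libraries, blue for naïve and red for CIA. Itgb1 lies close to a line (r = 0.945), Itga8 rises with more scatter (r = 0.844), Itgav has wider scatter (r = 0.712), and Itga6 declines (r = -0.586).

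The epithelial score went with Itga3 (r = 0.771, rho 0.680), Itgb4 (r = 0.693, rho 0.557) and Itgb6 (r = 0.615, rho 0.454), with adjusted permutation p of 2e-05 for each r. Within naïve and CIA mice these were 0.760 and 0.80 for Itga3, 0.640 and 0.744 for Itgb4, and 0.645 and 0.663 for Itgb6, and without the 2 libraries farthest from the median score 0.696, 0.582 and 0.499. Itga6 was the exception of its group, at r = 0.302 (rho 0.299, adjusted permutation p = 0.0240 and 0.0301). Without those 2 libraries its r was 0.218 and did not pass (adjusted permutation p = 0.117). Within naïve and CIA mice it was 0.318 and 0.310, and neither passed (adjusted permutation p = 0.147 and 0.106). Itgb1, Itga1, Itga7 and Itga8 had r between -0.369 and -0.295 with this score (adjusted permutation p from 0.00630 to 0.0276), of which that of Itga7 alone passed within naïve mice and those of the other 3 within CIA mice, Itga5 had -0.182 (adjusted permutation p = 0.182), with -0.420 within CIA mice (adjusted permutation p = 0.0256) and 0.147 within naïve mice, and Itgav -0.054 (adjusted permutation p = 0.684). All points of these relations share the depth and the piece of tissue of their library.

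Among the members themselves, the 6 pairs of muscle genes had r from 0.340 to 0.797 over the 60 libraries, and the 8 pairs of a muscle and a broad gene from 0.408 to 0.920, the latter being Itga1 with Itgb1. Epithelial pairs ran from -0.042 for Itga6 with Itgb6 to 0.755 for Itga3 with Itgb4. Of the 16 pairs of an epithelial and a muscle gene, 15 were below 0, down to -0.721 for Itgb4 with Itga7. With the means of the 12 groups removed, Itgb4 and Itga7 still had r = -0.748, and Itga3 and Itgb4 had 0.866. Itgb4 and Itga6, whose product is the only α chain of β4, had r = 0.411. Itgb6 and Itgav, whose product is the only α chain of β6, had 0.368. Both α chains also pair with other β chains. CPM are shares of a library's total, and the part of this in the values below 0 was not tested.

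**Figure D5:**
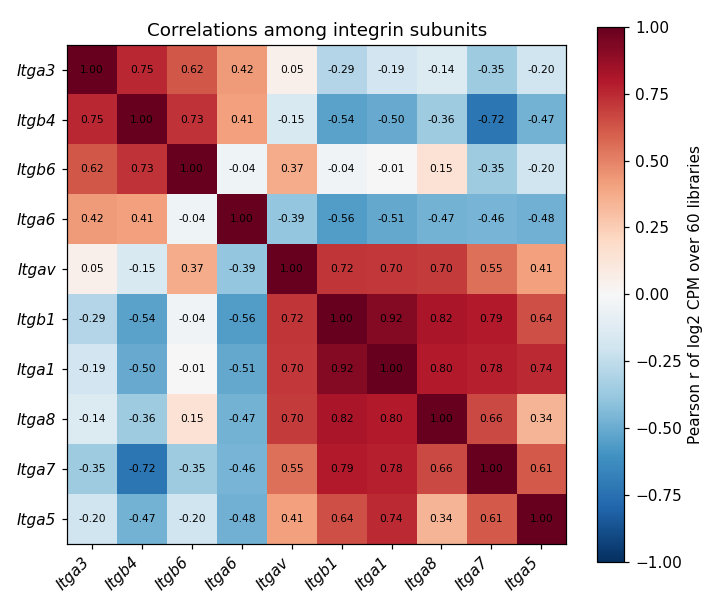
Pearson r of log2 CPM between the 10 members over 60 libraries (colour from -1 in blue to 1 in red, values printed in the cells), with epithelial genes first and muscle genes last. Muscle and broad genes form a red block from 0.340 to 0.920, and 15 of 16 pairs of an epithelial and a muscle gene are below 0.

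The balance of the members' transcripts within a library is given as a description, with no test, and rests on the same exon lengths. Per kb of exon, Itgb4 stood at 3.84 ± 1.09 times Itga6 in naïve and 4.22 ± 1.01 times in CIA mice (SD, n = 30), and above it in all 60 libraries. Itgb6 was at 0.789 ± 0.272 times Itgav in naïve and 0.722 ± 0.194 times in CIA mice. Transcripts of Itga5 amounted to 0.204 ± 0.0791 times those of Itgb1 in naïve and 0.219 ± 0.0622 times in CIA mice. Those of Itga7 amounted to 0.0637 ± 0.0108 and 0.0680 ± 0.0115 times. Itga8 stood at 0.0153 ± 0.00313 and 0.0175 ± 0.00276 times Itgb1, and Itga1 at 0.0142 ± 0.00231 and 0.0172 ± 0.00253 times. The ratio of Itga6 to Itga7, laminin receptors of epithelium and of muscle, was 1.02 ± 0.389 in naïve and 0.604 ± 0.207 in CIA mice. It exceeded 1 in 14 of 30 naïve and in 2 of 30 CIA libraries. Itga6 was called lower and Itga7 higher in these same mice, so a lower ratio in CIA follows from those calls. Neither was called with the muscle score in the model. The mean log2 CPM of the 4 muscle members minus that of the 4 epithelial members was -1.02 ± 0.476 in naïve and -0.45 ± 0.565 in CIA mice, with ranges of -1.85 to -0.13 and -1.36 to 0.76. This shift likewise follows from the calls of the 4 muscle members.

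The genes whose log2 CPM was most like that of a member were sought among the 10280 genes that averaged 10 CPM or more, and r over 60 libraries is given with no test. Itgb1 was most like Fermt2 (0.954), which encodes kindlin-2, an activator of integrins, then Msrb3 (0.954) and Cald1 (0.946). Itga1 was most like Enah (0.947), Tln1 (0.947), which encodes talin, the link from integrin tails to actin, and Fermt2 (0.937). Itga8 was nearest to Clip4 (0.927), Mpdz (0.926) and Prkg1 (0.925), Itga7 to Cspg4 (0.915), Nxn (0.900) and Syde1 (0.893), and Itga5 to Hspb1 (0.832), Calu (0.827) and Flnc (0.825). Itgav had the loosest neighbours, Kif1b (0.826), Sh3d19 (0.797) and Cfl2 (0.796). On the epithelial side, Itgb4 was most like Ngef (0.918), the desmosome gene Dsp (0.916) and Fam83e (0.899), Itgb6 like Anxa8 (0.895), the desmosome gene Pkp3 (0.879) and Eef2k (0.877), and Itga3 like Jup (0.861), which encodes a protein of desmosomes and adherens junctions, Tbc1d2 (0.820) and Scnn1a (0.819). Itga6 was nearest to Crk (0.887), Hook1 (0.857) and Foxn2 (0.855).

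The lists of other genes that follow stand beside the same background, 17.6% of all tested genes higher and 20.4% lower, or 4.23% and 4.45% with the muscle score in the model. Of 16 other integrin genes, 15 were tested, of which 4 rose and 6 fell in CIA, at a median log2 fold change of -0.12. Those that rose were Itga9 (0.53, SE 0.12, adjusted p = 4.94e-04), Itgb3 (0.63, SE 0.080, adjusted p = 6.45e-08), Itgb5 (0.27, SE 0.048, adjusted p = 1.94e-05) and Itgb8 (0.55, SE 0.22, adjusted p = 0.0428). Itgb3, Itgb5 and Itgb8 are β chains that pair with αv, as β6 does, but Itgb8 was at only 0.264 ± 0.123 CPM with arthritis and 0.182 ± 0.124 CPM without, and its call was lost without any 1 of 27 libraries. With the muscle score in the model Itgb3 alone of the 4 was called, and none of the 6 fallers was, with Itgb2 at 0.023, Itgb7 at -0.0040 and Itgae at -0.0045. Without ZT8, 2 of the 15 fell. Those that fell were chiefly leukocyte integrins, Itgb2 (-0.43, SE 0.13, adjusted p = 0.00716), Itgb7 (-0.50, SE 0.18, adjusted p = 0.0216), Itgae (-0.30, SE 0.12, adjusted p = 0.0344, lost without any 1 of 6 libraries), Itgal and Itgax, and in addition Itga11, a collagen receptor chain of fibroblasts. Itga2, the collagen receptor chain of epithelium, had a log2 fold change of -0.12 (adjusted p = 0.634) and Itga4, of leukocytes and other cells, 0.051 (adjusted p = 0.605). Itgb3 and the last-named fallers Itgal, Itgax and Itga11 were named after their values were seen.

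Among the matrix ligands, 5 of 11 laminin chains rose and none fell, at a median log2 fold change of 0.19, and with the muscle score in the model 1 was higher and none lower. Lama5, a laminin α chain of the gut's basement membranes, rose by 0.45 (SE 0.051, adjusted p = 7.76e-09), from 99.1 ± 12.3 to 135 ± 19.8 CPM, and was that 1 chain, at 0.25 (adjusted p = 0.00159). Lama3 (0.25, adjusted p = 0.234) and Lamb3 (0.085, adjusted p = 0.478), laminin chains of epithelial basement membranes, were not called. Lama2, the muscle laminin chain, had -0.031 (adjusted p = 0.879). Of 14 other ligands, collagens and binding partners 5 rose and 1 fell, at a median of 0.26. With the muscle score in the model none of the 14 was called higher and 3 were lower (Col1a1, Col1a2 and Col3a1, named after their values were seen), and the calls of Fn1 (0.057, adjusted p = 0.780) and Tgfb1 (-0.0054, adjusted p = 0.976) were lost. Fn1, the fibronectin ligand of α5β1, rose by 0.37 (SE 0.099, adjusted p = 0.00226), from 498 ± 139 to 644 ± 163 CPM. Tgfb1, whose latent form is bound by αvβ6, fell by 0.23 on the log2 scale (SE 0.072, adjusted p = 0.0106), a call also lost without ZT12 (adjusted p = 0.0570). Tgfb3, named after its values were seen, encodes another TGF-β and rose by 0.47 (SE 0.13, adjusted p = 0.00274). Npnt, the nephronectin ligand of α8β1, had 0.44 (SE 0.25, adjusted p = 0.160) and Vtn, the vitronectin ligand of αv integrins, 0.33 (SE 0.17, adjusted p = 0.104), and neither was called.

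Of 26 genes of the integrin adhesion complex inside the cell, 17 rose and 3 fell, at a median log2 fold change of 0.24. Fermt2 rose by 0.59 (SE 0.095, adjusted p = 3.33e-06), Tln1 by 0.36 (SE 0.055, adjusted p = 1.47e-06) and Ilk, the integrin-linked kinase, by 0.29 (SE 0.053, adjusted p = 2.25e-05). Fermt1, the kindlin of epithelium, fell by 0.22 (SE 0.087, adjusted p = 0.0385), a call that was lost without any 1 of 16 libraries. The second talin Tln2 (-0.0026, adjusted p = 0.974) and focal adhesion kinase Ptk2 (-0.066, adjusted p = 0.355) were not called. With the muscle score in the model 1 of the 26 was called higher and none lower. Of 8 hemidesmosome genes 3 rose and none fell, at a median of 0.11, and none was called with the muscle score in the model. Cd151, a tetraspanin that associates with α3β1 and α6β4, rose by 0.10 (SE 0.026, adjusted p = 0.00150), from 166 ± 11.3 to 178 ± 11.6 CPM, and stood at 0.095 (adjusted p = 0.0548) in that model. The others that rose were Dst (0.27, adjusted p = 0.00190) and Krt5 (0.95, adjusted p = 0.00943), named after their values were seen. Krt5 was at only 0.546 ± 0.476 CPM with arthritis and 0.282 ± 0.239 CPM without. Plec, which links α6β4 to keratin, had 0.028 (adjusted p = 0.724), and Col17a1 had 0.12 (adjusted p = 0.640).

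Markers of other cell types in the section moved as follows, each beside the same background, and their part in the members' results was not tested beyond the 2 covariates. All 10 enteric neuron and glia genes rose, with scores of 4.41 ± 0.383 in CIA and 3.77 ± 0.489 in naïve mice (SD, n = 30). Of 5 mesothelium genes 4 rose, with scores from -1.32 to 3.67 in CIA and from -1.76 to 3.43 in naïve mice. Of 8 leukocyte genes 5 fell, with scores of 3.46 ± 0.683 and 3.91 ± 0.645. Of 12 epithelium genes 3 fell and none rose, and Epcam had a log2 fold change of 0.011 (adjusted p = 0.880). None of 8 fibroblast and none of 8 endothelium genes were called, and of 9 tested skeletal muscle genes 3 rose, a count that ran from 1 to 6 as single libraries were left out and was 7 without ZT0. With the muscle score in the model no neuron and glia, mesothelium, epithelium or endothelium gene was called, 2 leukocyte and 3 fibroblast genes were lower, and 1 skeletal muscle gene was lower and none higher.

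To show the DNA before some of these genes, promoters were read from a RefSeq table of GRCm38.p6, which held 7 of the 10 members and not Itga6, Itga7 or Itgb4. Of these, 160 bases are given 5′ to 3′ for 2 muscle members, Itga1 and Itga5, for their partner Itgb1, and for the epithelial Itgb6. Itga1 and Itga5 both rose in CIA, and of these 2 Itga5 alone passed the test of rhythm without a covariate. The level of Itgb6 was not called in CIA. Capitals mark GGGCGG, a GC box, on either strand. The window ended at the base before the start site for the first 3, at chr13:115101965-115102124 on the minus strand for Itga1, chr15:103366792-103366951 on the minus strand for Itga5 and chr8:128685494-128685653 on the plus strand for Itgb1. For Itgb6 it ended at position -41, before an annotated exon, at chr2:60722644-60722803 on the minus strand.
Itga1: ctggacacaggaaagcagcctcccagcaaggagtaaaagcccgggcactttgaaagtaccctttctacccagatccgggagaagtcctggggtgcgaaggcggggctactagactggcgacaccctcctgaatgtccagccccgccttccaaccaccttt
Itga5: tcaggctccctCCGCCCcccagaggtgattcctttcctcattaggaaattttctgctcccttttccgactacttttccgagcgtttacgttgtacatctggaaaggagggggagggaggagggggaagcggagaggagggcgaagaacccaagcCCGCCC
Itgb1: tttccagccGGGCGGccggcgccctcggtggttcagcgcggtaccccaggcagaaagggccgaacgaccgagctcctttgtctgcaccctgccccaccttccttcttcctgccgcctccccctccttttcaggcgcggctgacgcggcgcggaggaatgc
Itgb6: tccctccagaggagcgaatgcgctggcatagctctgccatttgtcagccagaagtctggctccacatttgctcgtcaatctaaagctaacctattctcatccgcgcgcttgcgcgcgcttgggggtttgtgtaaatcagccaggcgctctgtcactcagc
In the 250 bases before the start, searched on both strands, GGGCGG was found in 3 of the 7 members, Itga3, Itga5 and Itgb1, and in 32.7% of all 32851 promoters. The CArG box, the site of serum response factor in smooth muscle genes, was found in none of the 7 and in 1.47% of all promoters. The E-box CACGTG, which clock factors bind, was found in none and in 6.02% of all, TATAAA in none and in 12.4%, and the AP-1 site TGANTCA in none and in 6.75%. GC content of these 250 bases was 57.6% for Itga1, 55.6% for Itga5, 68% for Itgb1 and 52% for Itgb6.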

How the data were processed

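The authors made stranded mRNA libraries, trimmed the paired-end reads with Trimmomatic 0.36, aligned them to GRCm38 (mm10) with STAR 2.5.3 and counted them per gene with Rsubread. The deposited values are raw counts per gene, named by Entrez identifier, and the strand setting of the counting is not given in the sources used here. Exons of Itgb4, Itga7, Itga8 and Itgav overlap those of a gene on the opposite strand, by at most 7.66% of their length, and those of Itga1 overlap a gene on the same strand by 3.68%. Of counts from 1 to 20, 74.0% were even, as would follow if both reads of a pair were counted, which was not tested. Totals and counts may then exceed the number of fragments, and halved counts were an alternative. No 2 libraries were copies.

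Symbols came from RefSeq for 25275 identifiers, and exon lengths from a GENCODE annotation of GRCm38. Genes were filtered with edgeR's filterByExpr (12 groups, minimum count 10, minimum total 15), which left 18057, and scaled with TMM factors. Tests were edgeR 4.0.16 quasi-likelihood F tests in R 4.3.3 (legacy form), over all genes with Benjamini-Hochberg adjustment and a threshold of 0.05. They compared treatments over 60 libraries, treatments at each time point in a fit of 12 groups, the treatment by time interaction, and 24 h cosine terms per treatment. SE is the absolute log2 fold change over the square root of F. Rhythm classes came from 5 models of log2 CPM (prior count 2). Correlations used two-sided permutation tests (100000 resamples), adjusted over 20 relations. Alternatives used DESeq2 1.42.0, limma 3.58.1, other filters, covariates and left-out libraries. The scripts recovered planted changes in simulated data, most of them larger than those of the members. Genes varied independently there, so how often changes of the members' size are found was not tested.

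Members, lists and the rule for named genes were chosen with earlier results of these data known. The rule took all 10 members, 3 genes most like each, and a fixed set of other integrins, ligands, adhesion and marker genes. The result of 1 gene that the rule names is not reported here. Labels do not say whether mice of a group shared a cage or an extraction. Columns of the table matched the 60 labels one to one.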

Additional observations from a re-analysis of the deposited data

Results flagged for a closer look

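Of 120 groups of 5 mice (10 members in 12 groups), 8 held a mouse set apart from the others by more than Dixon's 95% limit for 5 values, and chance flags about 5% of groups. Of these, 4 were high. Itga6 in CIA at ZT0 was 81.1 CPM in replicate 1 against 50.4 to 56.7 CPM in the others. Itga1 in naïve mice at ZT8 was 53.4 CPM in replicate 2 against 28.7 to 34.3 CPM. Itga5 in naïve mice at ZT16 was 164 CPM in replicate 1 against 113 to 124 CPM. Itgav in CIA at ZT4 was 100.7 CPM in replicate 3 against 76.7 to 82.2 CPM.

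The others were low. Itgb6 in CIA was 31.8 CPM in replicate 3 of ZT16 against 41.4 to 45.8 CPM, and 29.0 CPM in replicate 1 of ZT4 against 43.3 to 49.4 CPM. Itga7 in CIA at ZT16 was 77.2 CPM in replicate 5 against 101.3 to 112 CPM. Itga8 in naïve mice at ZT0 was 7.92 CPM in replicate 4 against 14.2 to 17.2 CPM.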

How the results depend on the processing

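The smooth muscle score as a covariate changed most: 1 member was then higher and 0 lower over all time points, 1 test higher and 0 lower within time points, 5 members had the same rhythm in both treatments and 1 a rhythm in CIA only. Itgb4 turned to 0.073, Itga4 to -0.040, Itga9 to -0.15, Itgb2 to 0.023, Npnt to -0.53 and Vtn to -0.29. Without ZT20, 0 members were lower. Leaving out each replicate number gave 1 to 3 tests higher and 0 to 1 lower within time points, 1 to 2 members rhythmic in naïve and 3 to 5 in CIA mice, and 1 to 2 with a rhythm in CIA only. Within naïve mice 10 of the 20 relations with marker scores passed, and the share over all genes was not computed. The correlation of Itgb6 with the smooth muscle score was -0.249 within CIA mice, and those of Itga5 and Itgav with the epithelial score were 0.147 and 0.153 within naïve mice.

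Values near 0 changed sign for genes that were not called. Itga4 was -0.0052 without ZT0. Lama2 was 0.024, 0.076 and 0.030 without ZT8, ZT12 and ZT16, and -0.070 to 0.0099 without single libraries. Epcam was -0.0070 with voom, -0.0090 without ZT12 and -0.00034 to 0.026 without single libraries. Tln2 was 0.0086 with DESeq2 size factors, 0.0061 with no filter, 0.0080 with the epithelial score, 0.0086 with DESeq2's test, 0.0013, 0.023, 0.0060 and 0.020 without ZT0, ZT8, ZT12 and ZT20, and -0.025 to 0.016 without single libraries.

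With the replicate block, 6 members were higher and 1 lower as before, and it changed no other count of members by over 1.5 times. Same-numbered mice of the 2 treatments had deviations with r from -0.471 to 0.446, over 0.1 in 8 of 30 pairs. No pairing by number was seen in this, but mice of different numbers were not compared. Halved counts, other scaling, filters and tests kept all 7 treatment calls. No proteins were measured.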
